A study of Sus scrofa with 105 samples.

Results

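The miR-130 and miR-148/miR-152 families were followed through 2 brain regions of piglets with diffuse traumatic brain injury. Members were chosen by name and by total count. The list held 5 names and was drawn up with earlier results of these data known. A member had to have an entry of exactly that name in the count table with a total above 0. By this rule 4 of the 5 names were found, among 448 miRNAs in all. They were ssc-miR-130a (504640 counts over all libraries), ssc-miR-148b-3p (5650), ssc-miR-152 (3908) and ssc-miR-148a-3p (735), each with 1 entry. No entry is named ssc-miR-130b. The table names the arms of that precursor ssc-miR-130b-3p (367781 counts) and ssc-miR-130b-5p (3462), and both are described below as relatives, the first being added to the description after the names in the table had been seen. The other arm of miR-148a, ssc-miR-148a-5p, was at 0 in every library.

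MicroRNAs are short RNAs that load into Argonaute proteins and lower the output of messenger RNAs that pair with their seed, the stretch near the 5′ end. miR-130a and miR-130b have the same seed, which they share with miR-301 and miR-454, and miR-148a, miR-148b and miR-152 have another seed in common that overlaps it. miR-130a is known as an angiogenic miRNA of endothelial cells that represses the homeobox genes GAX and HOXA5, and the miR-130 family represses PPARG. The miR-148/miR-152 family is known for repressing DNMT1, the maintenance DNA methyltransferase. In the RefSeq pig annotation (Sscrofa11.1), used here for gene names only, the precursor gene MIR148B lies within the span of COPZ1 and MIR152 within that of COPZ2, a pair of paralogous genes for a coatomer subunit. MIR130B lies within LOC100155534, and MIR130A and MIR148A lie within no other gene of that table.

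The study compared female piglets in 4 arms: sham or naive animals (survival 0 to 8 days, called sham here because the labels do not separate them), animals 1 day after the injury, animals 1 week (6 to 8 days) after it, and animals that received cyclosporine A (CsA) after the injury and survived 30 hours. CsA, a calcineurin inhibitor, was infused intravenously (20 mg/kg per day). The loading dose came 6 hours after injury and the infusion lasted 24 hours. All other arms are labelled untreated. The tissue was formalin-fixed and paraffin-embedded, from the frontal lobe or from the hippocampus together with the amygdala (called hippocampal tissue below).

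The frontal lobe gave 52 libraries, 18 from sham animals, 10 at 1 day, 15 at 1 week and 9 after CsA, and hippocampal tissue gave 53, with 18, 10, 15 and 10 in the same order. The totals of the libraries, after repeated entries were dropped, spanned 98008 to 12703535 counts (median 7257404), and 3 libraries, all sham, had fewer than 1000000. The geometric mean total was 3658665 counts in frontal sham and 8939708 at 1 day, and 4322559 and 9018693 in hippocampal tissue. Levels are CPM (a count scaled by its library total, with TMM factors), and differences are edgeR log2 fold changes with their standard error (SE). Markers of neurons (miR-124a, miR-9, miR-128 and others) were present throughout, at a summed median of 38900 CPM in frontal sham and 36700 in hippocampal sham. A difference was called at an adjusted p of 0.05 over all miRNAs tested in that comparison (284 in the frontal lobe, 290 in hippocampal tissue).

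The miR-130 family was by far the more abundant of the pair. Over all 105 libraries miR-130a had a mean of 598.0 CPM and ranked 64 of 448 miRNAs, and its relative miR-130b-3p had 438.8 CPM and ranked 72. miR-148b-3p followed at 6.289 CPM (rank 223) and miR-152 at 5.016 CPM (rank 237). miR-148a-3p was near the limit of detection, at 0.9172 CPM (rank 289). In frontal sham libraries miR-130a and miR-130b-3p together made up 0.0855% ± 0.0259 (SD, n = 18) of the counts, and the 3 miR-148/miR-152 members made up 0.00100% ± 0.000668. The counts behind these levels differ likewise: the median frontal sham library held 2116 counts of miR-130a, 17.5 of miR-148b-3p, 19.5 of miR-152 and 2 of miR-148a-3p.

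In the frontal lobe miR-130a and miR-148b-3p rose 1 day after injury, and miR-152 did not pass the test. miR-130a ran from 361 to 798 CPM in sham libraries (median 488) and from 575 to 941 at 1 day (median 727). All 10 libraries at 1 day lay above the sham median, while the upper sham libraries reached into the range at 1 day. The means were 504.6 ± 125 CPM (SD, n = 18) and 736.3 ± 129 (n = 10), a log2 fold change of 0.54 ± 0.11 (SE; 1.46-fold; edgeR adjusted p = 0.000128). miR-130b-3p ran from 187 to 627 CPM in sham (median 423) and from 465 to 758 at 1 day (median 591), with all 10 injured libraries above the sham median. Its log2 fold change was the same to 2 decimals, 0.54 ± 0.11 (edgeR adjusted p = 0.000104).

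**Figure D1:**
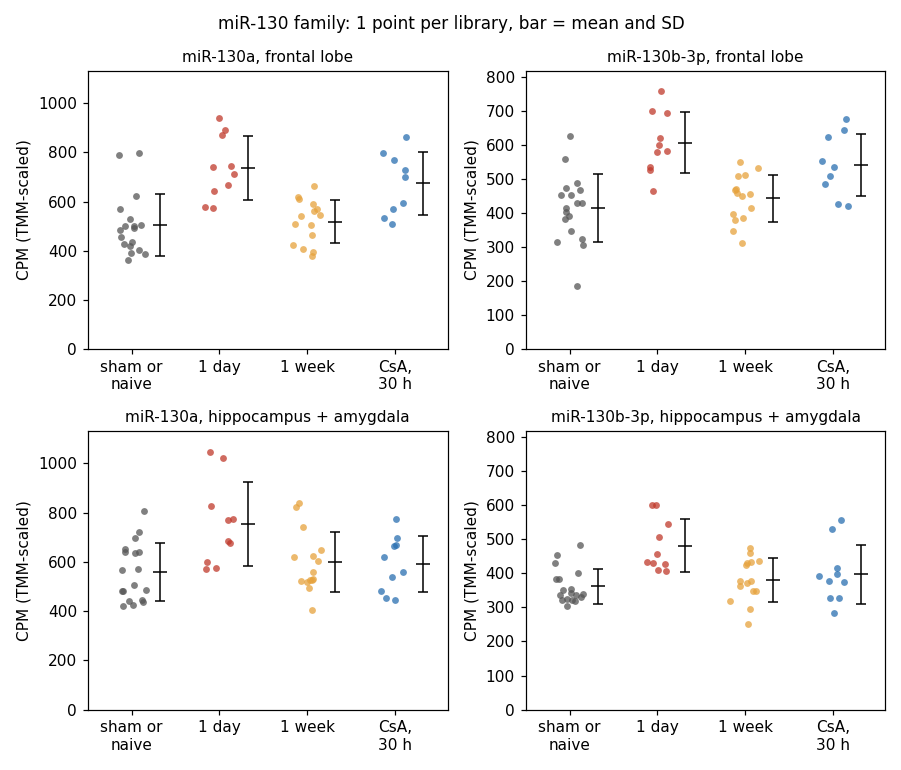
CPM of miR-130a (left) and miR-130b-3p (right) in the frontal lobe (top) and in the hippocampus with the amygdala (bottom), 1 point per library, with the mean and SD of each arm beside its points. At 1 day all 10 frontal libraries of miR-130a lie between 575 and 941 CPM, above the sham median of 488, and at 1 week the 15 libraries lie between 379 and 665.

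miR-148b-3p ran from 0 to 20.1 CPM in frontal sham libraries (median 3.85) and from 5.88 to 18.7 at 1 day (median 9.91). The ranges overlapped, and all 10 libraries at 1 day lay above the sham median. The sham library at 0 was the shallowest of the series. Its fold change was the largest of the members, 0.82 ± 0.28 on the log2 scale (1.77-fold; edgeR adjusted p = 0.0157), from means of 5.326 ± 4.87 CPM (n = 18) and 10.47 ± 3.72 (n = 10). That call was lost with log10 of the library total as a covariate (0.47, edgeR adjusted p = 0.238), and the calls of miR-148b-3p (0.23, adjusted p = 0.796), miR-130a (0.39, adjusted p = 0.224) and miR-130b-3p (0.47, adjusted p = 0.152) were lost among animals whose code in the library name begins with 12 or 13. Among those animals edgeR called 0.0% of 284 miRNAs. miR-152, the family member of nearest abundance, ran from 0 to 8.85 CPM in sham (median 4.51) and from 2.89 to 5.89 at 1 day (median 4.28), so that the range at 1 day lay inside that of sham. Its log2 difference was -0.15 with a 95% interval from -0.53 to 0.24 (edgeR adjusted p = 0.556). miR-148a-3p was left out of the frontal test by the low-count filter: its 18 sham libraries held 77 counts together, 12 of them with 3 or fewer, and its 10 libraries at 1 day held 93.

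Thus 2 of the 3 members tested were called higher in the frontal lobe at 1 day, where 18.7% of all 284 miRNAs were called higher and 44.7% were called in either direction. The median log2 difference was 0.54 over these 3 members and -0.04 over all miRNAs tested. Of all miRNAs, 53 were called higher and 74 lower with TMM scaling and 74 and 63 with RLE size factors, under which miR-130a was at 0.62 (adjusted p = 6.65e-05) and miR-148b-3p at 0.89 (adjusted p = 0.0099). In bulk tissue a change in the cells that carry a miRNA and a change in its amount per cell cannot be told apart.

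**Figure D2:**
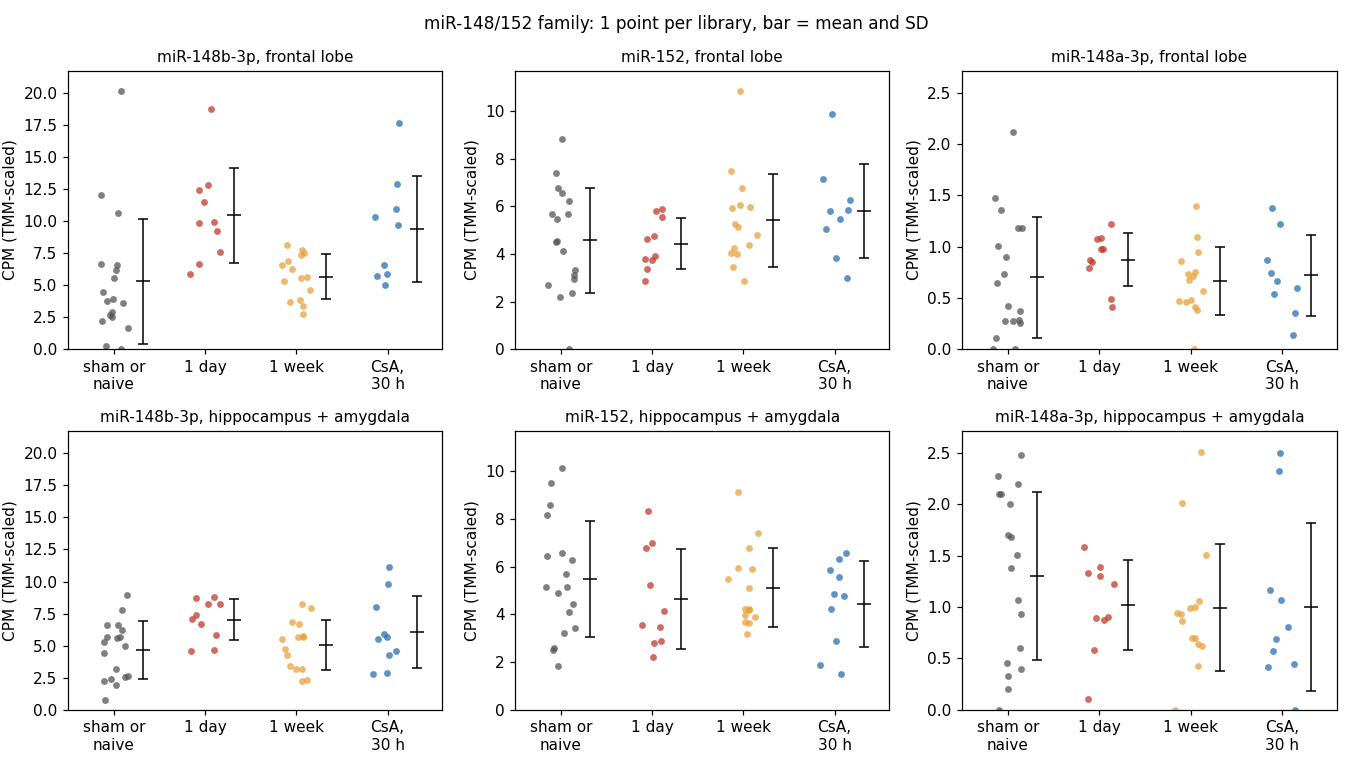
CPM of miR-148b-3p, miR-152 and miR-148a-3p in the frontal lobe (top) and in the hippocampus with the amygdala (bottom), 1 point per library, with the mean and SD of each arm. In the frontal lobe miR-148b-3p has a mean of 10.47 CPM at 1 day and 5.326 in sham, while miR-152 has 4.434 and 4.576.

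The scaling of a library cancels in its ratio of miR-148b-3p to miR-152, and the ratio is given as a description. It may still move with the library total, which was not tested. In hippocampal sham libraries the Spearman value of log2 CPM with log10 total was 0.676 for miR-148b-3p and 0.135 for miR-152. In frontal sham libraries these values were 0.422 and 0.368. The geometric mean ratio was 0.900 in frontal sham (17 libraries, 1 without both counts), 2.30 at 1 day (n = 10), 1.57 after CsA (n = 9) and 1.05 at 1 week (n = 15). In hippocampal tissue it was 0.806 in sham, 1.62 at 1 day, 1.37 after CsA and 0.952 at 1 week. The log2 ratio was above 0 in every frontal library at 1 day, the lowest being 0.96, and ran from -4.32 to 1.44 in frontal sham. In both regions the mean ratio was highest at 1 day and lowest in sham.

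In hippocampal tissue miR-130a rose at 1 day, and no other member was called. miR-130a ran from 420 to 807 CPM in sham (median 538) and from 571 to 1050 at 1 day (median 726). Again all 10 injured libraries lay above the sham median and the ranges overlapped. The means were 558.3 ± 118 CPM (n = 18) and 754.7 ± 171 (n = 10), a log2 fold change of 0.43 ± 0.11 (1.35-fold; edgeR adjusted p = 0.00177). miR-130b-3p, from 306 to 484 CPM in sham (median 341) and from 406 to 602 at 1 day (median 446), rose by 0.41 ± 0.09 on the log2 scale (edgeR adjusted p = 0.000451). The call of miR-130a was lost with the covariate (0.25, edgeR adjusted p = 0.102), and in codes beginning with 12 or 13 both were lost, at 0.08 (adjusted p = 0.86) and 0.14 (adjusted p = 0.645). In those codes edgeR called 0.0% of 288 miRNAs.

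miR-148b-3p ran from 0.753 to 8.98 CPM in hippocampal sham libraries (median 5.13) and from 4.57 to 8.81 at 1 day (median 7.25), and 8 of the 10 injured libraries lay above the sham median. Its log2 difference of 0.52 ± 0.24 missed the threshold (edgeR adjusted p = 0.0598). It was called when any 1 of 5 libraries was left out (sham replicates 4, 10, 13 and 18 and 1-day replicate 5), with adjusted p from 0.0275 to 0.0491. miR-152 differed by -0.21 ± 0.24 (adjusted p = 0.464), with medians of 5.15 CPM in sham and 3.85 at 1 day. miR-148a-3p was tested here and differed by -0.39 ± 0.38 (adjusted p = 0.385), with medians of 1.45 and 1.06 CPM. So 1 of 4 members was called higher, where 28.3% of all 290 miRNAs were called higher and 48.6% in either direction. The median log2 difference was 0.11 over the 4 members and 0.07 over all. All miRNAs split into 82 higher and 59 lower calls with TMM and 69 and 70 with RLE size factors, under which miR-130a was at 0.39 (adjusted p = 0.00379).

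**Figure D3:**
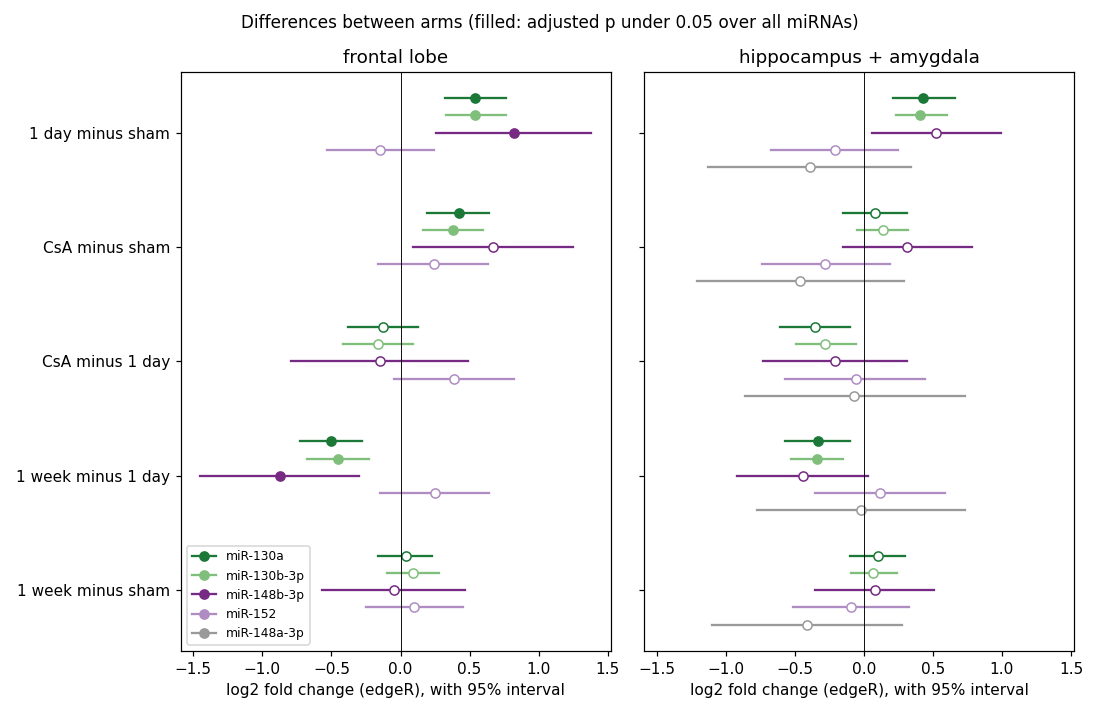
Log2 fold changes from edgeR with 95% intervals for 5 differences between arms, in the frontal lobe (left) and in the hippocampus with the amygdala (right); filled points have an adjusted p under 0.05 over all miRNAs tested, and miR-148a-3p was not tested in the frontal lobe. miR-130a lies at 0.54 and 0.43 for 1 day minus sham, at -0.50 and -0.33 for 1 week minus 1 day, and at 0.04 and 0.10 for 1 week minus sham.

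At 1 week no member was distinguishable from sham, and miR-130a was lower than at 1 day in both regions. In the frontal lobe at 1 week miR-130a ran from 379 to 665 CPM (median 541), and all 15 libraries lay below the median at 1 day. It fell by 0.50 ± 0.12 on the log2 scale from 1 day to 1 week (edgeR adjusted p = 0.000904), and miR-130b-3p by 0.45 ± 0.11 (adjusted p = 0.00201). miR-148b-3p, from 2.79 to 8.14 CPM at 1 week (median 5.62), also had all 15 libraries below the median at 1 day and fell by 0.87 ± 0.29 (edgeR adjusted p = 0.0171), a call lost with the covariate (-0.62, adjusted p = 0.0904). miR-152 differed by 0.25 ± 0.20 (adjusted p = 0.326). These 2 of 3 members called lower stand beside 12.7% of all miRNAs called lower and 35.9% in either direction (66 higher and 36 lower with TMM, 56 and 56 with RLE). Codes beginning with 11 are the only ones shared by 1-day and 1-week animals. Within them (4 animals at 1 week and 5 at 1 day) miR-130a was at -0.45 (edgeR p = 0.00604, adjusted p = 0.0926), miR-130b-3p at -0.39 (adjusted p = 0.143) and miR-148b-3p at -0.76 (adjusted p = 0.278). By edgeR no miRNA was called there (0.0% of 281, with 70 at an unadjusted p under 0.05). For the other animals code and time cannot be told apart.

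In hippocampal tissue miR-130a ran from 404 to 839 CPM at 1 week (median 557), with 3 of 15 libraries above the median at 1 day. It fell by 0.33 ± 0.12 on the log2 scale (edgeR adjusted p = 0.0289), and miR-130b-3p by 0.34 ± 0.10 (adjusted p = 0.00728). The call of miR-130a was lost when any 1 of 7 libraries was left out (1-day replicates 1, 2, 3, 4, 8 and 9 and 1-week replicate 14), with adjusted p up to 0.113, while that of miR-130b-3p was kept in each of the 25 fits. With the covariate the call of miR-130a was also lost (-0.25, adjusted p = 0.0881), and among codes beginning with 11 neither miR-130a (-0.28, edgeR adjusted p = 0.432) nor miR-130b-3p (-0.34, adjusted p = 0.303) was called. Within those codes (4 animals at 1 week and 5 at 1 day) edgeR called no miRNA (0.0% of 290, with 47 at an unadjusted p under 0.05). miR-148b-3p (-0.44 ± 0.24, adjusted p = 0.146), miR-152 (0.12 ± 0.24, adjusted p = 0.697) and miR-148a-3p (-0.02 ± 0.38, adjusted p = 0.973) were not called. Among all 290 miRNAs, 17.6% were called lower and 29.3% in either direction, with 34 higher and 51 lower calls under TMM and 39 and 37 under RLE.

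Set against sham, 1 week gave no called member in either region, and there was hardly any call elsewhere (0.0% of miRNAs in the frontal lobe and 0.345% in hippocampal tissue by edgeR). At an unadjusted p under 0.05 there were 19 frontal miRNAs and 15 of hippocampal tissue, and DESeq2 called 1 and 3, all lower. The interval of miR-130a ran from -0.16 to 0.23 in the frontal lobe and from -0.10 to 0.30 in hippocampal tissue. That of miR-148b-3p was wider, from -0.57 to 0.47 and from -0.35 to 0.51. The differences from sham and from 1 day share their groups and are not independent of each other.

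After CsA at 30 hours, miR-130a was higher than in sham in the frontal lobe but not detectably in hippocampal tissue. In the frontal lobe it ran from 508 to 864 CPM (median 701), with all 9 libraries above the sham median, and the log2 fold change was 0.42 ± 0.12 (1.33-fold; edgeR adjusted p = 0.00616). miR-130b-3p, from 422 to 678 CPM (median 535), had 8 of 9 libraries above the sham median and a log2 fold change of 0.38 ± 0.11 (adjusted p = 0.00931). Both calls were lost with the covariate, at 0.27 (edgeR adjusted p = 0.106) and 0.18 (adjusted p = 0.211). They were also lost in codes beginning with 11 (4 CsA and 6 sham animals), at 0.33 (adjusted p = 0.0944) and 0.20 (adjusted p = 0.346), where 12.6% of 278 miRNAs were called. In codes beginning with 12 or 13 (5 and 5 animals) they were at 0.22 (adjusted p = 0.629) and 0.29 (adjusted p = 0.422), and edgeR called 0.0% of 284 miRNAs there. miR-148b-3p, from 5.04 to 17.7 CPM (median 9.68), had all 9 libraries above the sham median, but its difference of 0.67 ± 0.29 missed the threshold (edgeR adjusted p = 0.0681). Without frontal sham replicate 9, which held its highest sham value of 20.1 CPM, that adjusted p was 0.00518, and without sham replicate 1 or 18 or CsA replicate 2 or 9 it lay between 0.0282 and 0.049. miR-152 differed by 0.24 ± 0.20 (adjusted p = 0.335). Thus 1 of 3 members was called higher, beside 14.8% of all miRNAs called higher and 34.2% in either direction (42 higher and 55 lower with TMM, 53 and 48 with RLE).

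In hippocampal tissue miR-130a ran from 445 to 776 CPM after CsA (median 588), with 7 of 10 libraries above the sham median, and differed from sham by 0.08 ± 0.12 (edgeR adjusted p = 0.631). miR-130b-3p (0.14 ± 0.10), miR-148b-3p (0.31 ± 0.24), miR-152 (-0.28 ± 0.24) and miR-148a-3p (-0.46 ± 0.38) were not called either, where 20.3% of all miRNAs were. All miRNAs split into 32 higher and 27 lower calls with TMM and 25 and 32 with RLE.

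With all animals no member was called between CsA and the untreated injured animals at 1 day, and neither was any other miRNA by edgeR (0.0% in both regions, with 12 frontal miRNAs and 69 of hippocampal tissue at an unadjusted p under 0.05). DESeq2 called 0 in the frontal lobe and, in hippocampal tissue, 8 higher and 5 lower. Within codes beginning with 11 (5 and 5 animals) edgeR called 17 of 284 miRNAs (5.99%) in hippocampal tissue, no member among them. It called 0.0% there with codes beginning with 12 or 13, and 0.0% in either code group of the frontal lobe. In hippocampal tissue only 1 of the 10 CsA libraries of miR-130a lay above the median at 1 day, and the log2 difference was -0.35 with an interval from -0.61 to -0.10 (edgeR adjusted p = 0.128, DESeq2 0.0516). miR-130b-3p was at -0.28, with an interval from -0.49 to -0.06 and the same edgeR adjusted p of 0.128. In the frontal lobe the intervals ran from -0.38 to 0.13 for miR-130a and from -0.79 to 0.49 for miR-148b-3p. The treated animals also lived longer than 1 day, so CsA and survival time cannot be told apart in this comparison.

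Whether injury moved the members by another amount in hippocampal tissue than in the frontal lobe was tested in the 52 animals with both regions, with the animal as a block. No interaction was called for any miRNA by edgeR, at 1 day, at 1 week or with CsA (0.0% each, with 9, 8 and 73 of 298 miRNAs at an unadjusted p under 0.05; DESeq2 called 0, 0 and, with CsA, 14 higher and 15 lower). The smallest p of a member interaction was that of miR-130a with CsA, -0.33 with an interval from -0.59 to -0.08 (edgeR adjusted p = 0.106). DESeq2 gave -0.39 with an adjusted p of 0.0357 for it, and -0.27 with 0.0495 for miR-130b-3p. At 1 day the interaction was -0.17 ± 0.12 for miR-130a and -0.45 ± 0.35 for miR-148b-3p (both with an edgeR adjusted p of 0.856).

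In sham animals no member was called between the regions, while miR-130b-3p, the paralog of miR-130a, was. miR-130a had a median of 538 CPM in hippocampal tissue and 488 in the frontal lobe, and the within-animal difference was 0.09 ± 0.07 on the log2 scale (edgeR adjusted p = 0.357). miR-130b-3p, with medians of 341 and 423 CPM, was lower in hippocampal tissue, with a log2 difference of -0.25 ± 0.06 (adjusted p = 0.000854). miR-148b-3p (-0.19 ± 0.23), miR-152 (0.02 ± 0.20) and miR-148a-3p (0.66 ± 0.34, adjusted p = 0.103) were not called. None of 4 members was called where 47.3% of 298 miRNAs were, 65 higher and 76 lower in hippocampal tissue.

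The ratio of miR-130b-3p to miR-130a within a library went in the same direction without any scaling, and is given as a description. Its geometric mean was 0.816 in frontal sham, 0.827 at 1 day, 0.856 at 1 week and 0.806 after CsA. In hippocampal tissue it was 0.656, 0.646, 0.639 and 0.671 in that order. Every arm of hippocampal tissue lay below every frontal arm on this geometric mean, while single libraries overlapped. The log2 ratio ran from -1.12 to 0.08 in frontal sham and from -0.92 to -0.39 in hippocampal sham (n = 18 each). It reached -0.21 in hippocampal tissue after CsA (n = 10).

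Of the 8 relatives listed by seed or precursor, 5 were tested, and 3 were called higher in the frontal lobe at 1 day, where 18.7% of all miRNAs were, and none lower. Besides miR-130b-3p these were the passenger arm ssc-miR-130b-5p (0.98 ± 0.31, edgeR adjusted p = 0.00841), from a median of 2.67 CPM in sham to 6.57, and ssc-miR-454, of the same seed as miR-130a (0.45 ± 0.19, adjusted p = 0.0498), from 4.12 to 6.72 CPM. ssc-miR-301, which also has that seed, differed by -0.19 ± 0.23 (adjusted p = 0.505), and ssc-miR-19b, whose seed overlaps it, by -0.03 ± 0.25 (adjusted p = 0.919). The median over the 5 was 0.45, against -0.04 over all miRNAs.

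The arm miR-130b-5p also rose in hippocampal tissue at 1 day. Its sham libraries ran from 0 to 7.14 CPM (median 1.40) and its libraries at 1 day from 3.86 to 13.6 (median 5.45), all 10 above the sham median. The log2 fold change was 1.60 ± 0.41 (edgeR adjusted p = 0.00123), followed by -1.48 ± 0.41 from 1 day to 1 week (adjusted p = 0.00573). It was also higher than sham after CsA in both regions, by 0.86 ± 0.32 in the frontal lobe (adjusted p = 0.033) and 1.17 ± 0.41 in hippocampal tissue (adjusted p = 0.0377). These rest on few reads, with medians of 9.5 counts per frontal sham library and 6 in hippocampal tissue. The calls of miR-130b-5p and of miR-454 are given from the fit of all animals only. Whether they hold with log10 total as a covariate or within code groups was not examined. miR-454 (0.32 ± 0.17), miR-301 (-0.19 ± 0.21) and miR-19b (0.18 ± 0.17) were not called at 1 day in hippocampal tissue. In sham, miR-130b-5p (-0.90 ± 0.22, adjusted p = 0.000783) and miR-19b (-0.69 ± 0.18, adjusted p = 0.00141) were lower there than in the frontal lobe. ssc-miR-19a and ssc-miR-148b-5p, with 458 and 131 counts in all, did not pass the filter.

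Among animals, the paralogs of miR-130 moved together. Over the deviations of log2 CPM from arm means, miR-130a and miR-130b-3p had a Pearson r of 0.829 in the 52 frontal libraries (Spearman 0.891) and 0.803 in the other 53 (Spearman 0.795), with a permutation p of 1e-05 each, the smallest that 100000 permutations can give (5e-05 after adjustment over the 20 relations computed). Without the 2 farthest libraries r was 0.797 and 0.776. Among animals with codes beginning with 11, r was 0.791 and 0.774, and among those beginning with 12 or 13 it was 0.931 and 0.851. miR-148b-3p and miR-152 were less alike, with r at 0.725 in the frontal lobe (Spearman 0.453; permutation p 0.00097 and 0.0018, adjusted 0.0024 and 0.004) and 0.340 in hippocampal tissue (Spearman 0.273; permutation p 0.019 and 0.056, adjusted 0.029 and 0.08). Without the 2 farthest libraries these were 0.569 and 0.312. In frontal animals with codes beginning with 11 the relation of miR-148b-3p and miR-152 did not hold (r = 0.031, n = 19, permutation p = 0.92), and with codes beginning with 12 or 13 it was 0.859 (n = 15). Both miRNAs of a pair share the total and scaling of each library.

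Of 277 miRNAs other than the members, compared over the same frontal deviations, those most like miR-130a were miR-130b-3p (r = 0.829), miR-30e-5p (0.823) and miR-27a (0.805), with 0.803, 0.836 and 0.642 in hippocampal tissue. Of 276 compared with miR-130b-3p, the closest were miR-340 (0.819), miR-660 (0.775) and miR-107 (0.771), with 0.675, 0.691 and 0.812. For miR-148b-3p they were miR-30c-5p (0.821), miR-19b (0.801) and miR-199a-3p (0.796), with 0.618, 0.091 and 0.391 there. For miR-152 they were miR-101 (0.874), miR-30c-5p (0.859) and let-7d-3p (0.853), with 0.404, 0.253 and -0.138. For miR-148a-3p they were miR-345-5p (0.674), miR-223 (0.650) and miR-30b-5p (0.649), with -0.190, -0.163 and 0.202. The 3 partners of miR-130a, its paralog among them, had values of 0.642 or more in both tissues, while hippocampal values for the partners of the other members ran from -0.190 to 0.618. Partners were picked by their frontal r, which is therefore high by choice. The frontal libraries include the shallowest (98008 counts), in which miR-148a-3p, miR-148b-3p and miR-152 were all at 0. The part of that library and of low counts in this contrast was not tested.

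The regions of 1 animal deviated together for the miR-130 paralogs. Across the 52 animals the deviation in the frontal lobe and that in hippocampal tissue had r = 0.456 for miR-130a (Spearman 0.453; permutation p 0.00087 and 0.00094, adjusted 0.0022 and 0.0023 over 5 relations) and 0.581 for miR-130b-3p (Spearman 0.621; permutation p 1e-05 each, adjusted 5e-05). Without the 2 farthest animals r was 0.383 and 0.638. For miR-148b-3p (0.174, permutation p 0.33), miR-152 (-0.235, permutation p 0.14) and miR-148a-3p (0.201, permutation p 0.18) no relation was detected, at the few counts per library these have. Only arm means were removed. Both regions of an animal share its code, and library totals can be alike: the same sham animal gave the lowest total in each region (98008 and 401354 counts). The part of totals and codes in these relations was not tested.

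Library totals moved with the arms, and within sham some members moved with the total. In the 18 hippocampal sham libraries log2 CPM of miR-130a had r = 0.594 with log10 total (Spearman 0.818; permutation p 0.0058 and 0.00011, adjusted 0.012 and 0.0011 over 10 relations, and r = 0.524 without the 2 farthest libraries). There miR-130b-3p had r = 0.495 (Spearman 0.719, permutation p 0.035 and 0.0012, adjusted 0.058 and 0.0061), and 0.568 without those 2. For miR-148b-3p it was 0.388 (Spearman 0.676, permutation p 0.11 and 0.0026, adjusted 0.12 and 0.0088), and 0.356 without them. For miR-152 (-0.1, Spearman 0.135) and miR-148a-3p (0.467, Spearman 0.156) no adjusted permutation p was under 0.05. In frontal sham libraries r was 0.461 for miR-130a (Spearman 0.509; permutation p 0.055 and 0.033, adjusted 0.069 and 0.067) and 0.748 for miR-148b-3p (Spearman 0.422; permutation p 0.0043 and 0.083, adjusted 0.011 and 0.12), the latter resting on the 2 farthest libraries, without which it was 0.315. It was 0.781 for frontal miR-130b-3p (Spearman 0.577; permutation p 0.00098 and 0.013, adjusted 0.0098 and 0.033) and 0.813 for frontal miR-152 (Spearman 0.368; permutation p 0.0044 and 0.13, adjusted 0.011 and 0.17), and 0.338 and 0.312 without those libraries. Among the 6 sham animals with codes beginning with 11, r was 0.517 and 0.131 for miR-130a in the frontal lobe and hippocampal tissue (exact permutation p 0.31 and 0.72) and -0.045 and 0.019 for miR-148b-3p (exact permutation p 0.91 and 0.96). For frontal miR-130b-3p it was 0.856 in these 6 (exact permutation p 0.025; Spearman 0.829, exact permutation p 0.058).

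**Figure D4:**
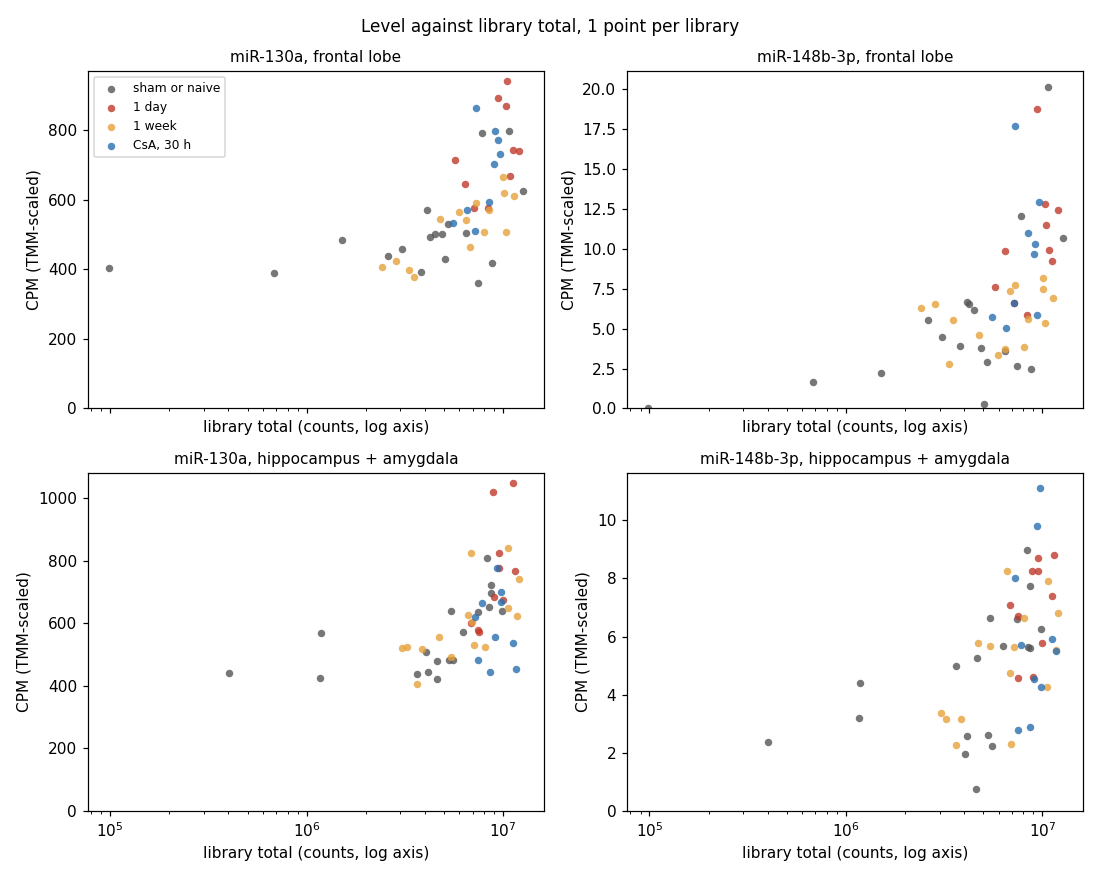
CPM of miR-130a (left) and miR-148b-3p (right) against the library total in counts on a log axis, for the frontal lobe (top) and the hippocampus with the amygdala (bottom), 1 point per library and colours for the arms. All totals under 5707853 counts in the frontal lobe belong to sham, 1 week or CsA libraries, and the 10 libraries at 1 day lie to the right, from there to 12008130.

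With log10 total as a covariate the frontal difference at 1 day was 0.37 for miR-130a (edgeR adjusted p = 0.0104) and 0.31 for miR-130b-3p (adjusted p = 0.0136), and in hippocampal tissue 0.27 for miR-130b-3p (adjusted p = 0.0352). These were still called, while the calls of frontal miR-148b-3p (0.47, edgeR adjusted p = 0.238) and of hippocampal miR-130a (0.25, adjusted p = 0.102) were lost. Without the libraries under 1000000 counts the values at 1 day were close to those of all animals, at 0.51 for frontal miR-130a, 0.78 for frontal miR-148b-3p and 0.42 for miR-130a in hippocampal tissue, each called where it had been called before.

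When animals were split by the start of their code, calls at 1 day were made only with codes beginning with 11. With those alone (5 animals at 1 day and 6 sham) frontal miR-130a was at 0.57 (edgeR adjusted p = 0.00159) and miR-148b-3p at 1.30 (adjusted p = 0.0141), with 36.3% of all miRNAs called. In hippocampal tissue they were at 0.60 (adjusted p = 0.00514) and 0.90 (adjusted p = 0.0329), with 40.1% called. With codes beginning with 12 or 13 (5 and 5 animals) no miRNA was called in either region by edgeR, with 61 and 53 at an unadjusted p under 0.05, and miR-148b-3p of hippocampal tissue was at -0.10. The meaning of the codes is not stated, and the difference between the code groups was not tested.

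**Figure D5:**
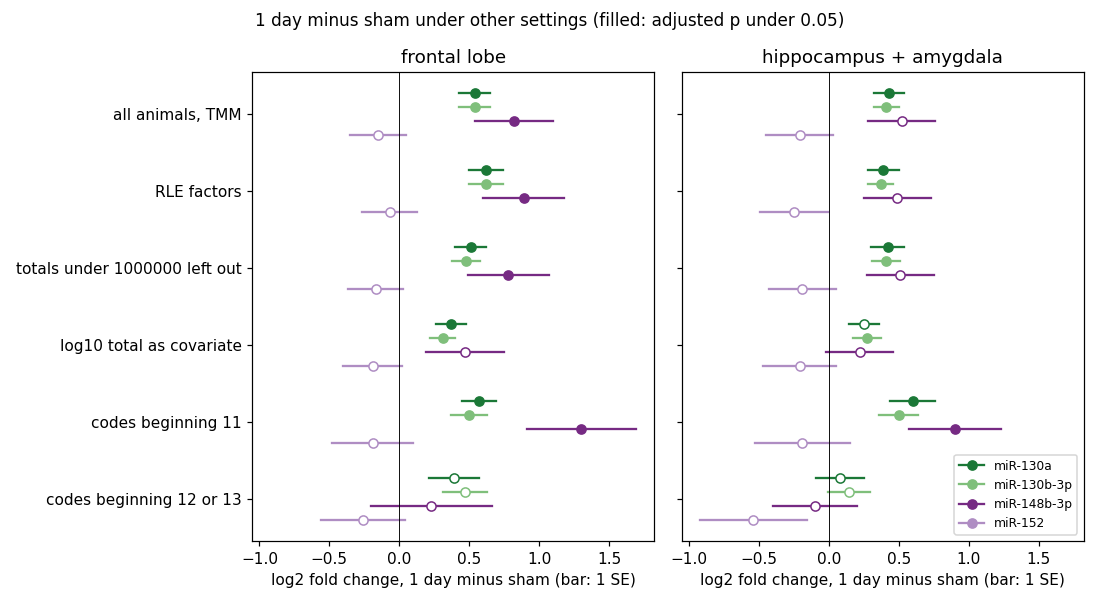
Log2 fold changes at 1 day minus sham with 1 SE on either side, under 6 settings, in the frontal lobe (left) and in the hippocampus with the amygdala (right); filled points have an adjusted p under 0.05. miR-130a goes from 0.54 with all animals to 0.39 with codes beginning with 12 or 13 in the frontal lobe, and from 0.43 to 0.08 in hippocampal tissue.

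Markers of other cells also moved at 1 day, where 44.7% of all miRNAs were called in the frontal lobe (18.7% higher) and 48.6% in hippocampal tissue (28.3% higher). The summed CPM of the 2 endothelial markers, miR-126-3p and miR-126-5p, ran from 3170 to 7620 in frontal sham (median 5650) and from 5480 to 7930 at 1 day (median 6570), and from 3370 to 5620 (median 4410) and 4740 to 7370 (median 5580) in hippocampal tissue. Of these markers 1 of 2 was called higher in the frontal lobe and 2 of 2 in hippocampal tissue. Of 6 neuronal markers tested, 3 were called higher and 2 lower in each region at 1 day, and of 3 oligodendrocyte markers 0 higher and 2 lower in the frontal lobe. Of 4 leukocyte markers 0 changed in the frontal lobe and 2 rose in hippocampal tissue, with summed medians of 165 and 154 CPM in frontal sham and at 1 day. Of mural markers 1 of 3 rose in the frontal lobe, of choroid plexus markers 1 of 2 rose in the frontal lobe, and of erythrocyte markers 1 of 2 fell there and 1 of 3 rose in hippocampal tissue. No marker was at 0 throughout a group. Their part in the differences of the members was not tested.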

How the data were processed

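Small RNA was sequenced in 105 libraries of 53 animals, told apart by the code in each library name (the series text gives 50 subjects), and replicates were taken as animals. The authors deposited raw counts per mature miRNA and precursor entry. Trimmomatic 0.39 and cutadapt 1.9.1 are named per the submitters' processing notes. No aligner, counter, annotation, build or use of molecular identifiers is stated, so reads need not be independent molecules, and family members differing by few bases may share reads. Entries that repeat a mature name were merged by keeping the entry with the highest total and dropping the others. The same was done for names whose totals are at least 100 and whose counts differ by under 0.01 of the larger total (542 entries to 448 miRNAs). Library totals are sums over the entries kept. Over all deposited entries they ran from 135324 to 19652378 counts. No miRNA sequences were used here.

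All miRNAs were tested with the edgeR 4.0.16 quasi-likelihood test in R 4.3.3 (robust, TMM, filterByExpr with minimum count 10 and minimum total 15, Benjamini-Hochberg at 0.05, 2-sided), with 4 arms in 1 fit per region. The regions were compared within 52 animals in a fit blocked on the animal, paired by the shared code. Alternatives were RLE, DESeq2 1.42.0, no filter, no merging, let-7 and miR-98 left out, log10 total as a covariate, totals under 1000000 left out, code groups (1 of them, with 1 week, added after seeing the data) and each animal left out in turn. The members and lists were chosen with earlier results of these data known. Members, relatives by seed or precursor, and the 3 miRNAs most alike to each member and to miR-130b-3p were named.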

Additional observations from a re-analysis of the deposited data

How the results depend on the processing

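The count of members called at 1 day minus sham in the frontal lobe was 2, against 1 with log10 total as a covariate and 0 with codes beginning with 12 or 13. In the hippocampus with the amygdala (hippocampal tissue) it was 1, against 2 with miR-130b-3p counted for the absent miR-130b (a choice made after seeing the data), 0 with the covariate, 2 with codes beginning with 11 and 0 with codes beginning with 12 or 13, and from 1 to 2 with 1 animal left out. For CsA minus sham in the frontal lobe it was 1, against 2 with miR-130b-3p counted, 2 without let-7 and miR-98, 0 with the covariate and 0 in either code group, and from 1 to 2 with 1 animal left out. For 1 week minus 1 day it was 2 in the frontal lobe, against 1 with the covariate and 0 with codes beginning with 11 (a fit added after seeing the data), and 1 in hippocampal tissue, against 2 with miR-130b-3p counted, 0 without the filter, without merging, with the covariate or with those codes, and 0 to 1 with 1 animal left out. It was 0 for the regions in sham, against 1 with miR-130b-3p counted, and 0 for the interaction with CsA, against 1 with DESeq2. Several of these zeros hold for every miRNA. With codes beginning with 12 or 13, edgeR called 0.0% of all miRNAs at 1 day minus sham in both regions and for frontal CsA minus sham. It also called 0.0% for 1 week minus 1 day with codes beginning with 11 in both regions. With codes beginning with 11 it called 12.6% of 278 for frontal CsA minus sham and 40.1% of 284 for hippocampal 1 day minus sham. Shares with the covariate are not given. The cause of these changes was not tested.

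Some differences that were not called with all animals changed sign. With the covariate, 1 week minus sham was -0.06 for miR-130a and -0.04 for miR-130b-3p in the frontal lobe, and -0.0038 for miR-130b-3p and -0.04 for miR-148b-3p in hippocampal tissue. There, CsA minus sham was -0.10 for miR-130a and -0.0019 for miR-130b-3p with the covariate, and -0.25 for miR-130a with codes beginning with 12 or 13. In those code groups miR-152 was at -0.23 for CsA minus sham in the frontal lobe, and in hippocampal tissue miR-148b-3p was at -0.10 for 1 day minus sham and 0.10 for CsA minus 1 day. With codes beginning with 11 miR-148a-3p was at 0.59 for CsA minus 1 day, and in the added fit miR-148b-3p was at 0.62 for 1 week minus sham in the frontal lobe and miR-152 at -0.0048 for 1 week minus 1 day in hippocampal tissue. The 1 week minus 1 day difference of miR-148a-3p was 0.02 with RLE, DESeq2, no filter or let-7 left out and 0.06 without merging. miR-152 between regions in sham was -0.05 with the covariate and -0.02 without the low totals. Leaving out 1 animal gave -0.12 to 0.21 for frontal miR-148b-3p at 1 week minus sham and, in hippocampal tissue, -0.16 to 0.01 for miR-152 at 1 week minus sham, -0.31 to 0.13 for miR-148a-3p and -0.14 to 0.09 for miR-152 at CsA minus 1 day, -0.19 to 0.11 for miR-148a-3p at 1 week minus 1 day, and -0.14 to 0.08 for miR-152 between regions.

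Without the replicate block on the animal, 0 members were called between the regions in sham, with miR-130b-3p at -0.27 (edgeR adjusted p = 0.011), and no call of a member changed. The frontal calls at 1 day held with each of the 28 animals left out in turn (0.50 to 0.63 for miR-130a and 0.74 to 1.07 for miR-148b-3p). Low counts limit miR-148a-3p, miR-148b-3p, miR-152 and miR-130b-5p.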
